A study of Mus musculus with 4 samples.

Results

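Gene expression in bone marrow LSK cells was compared between 2 of the study's 4 arrays, the one labelled TET2KD and the one labelled WT. LSK cells, which lack lineage markers and display Sca-1 and c-Kit, are the marrow cells among which stem cells and multipotent progenitors are found. The WT cells came from lethally irradiated mice that had been transplanted with wild type E14.5 fetal liver cells and were studied 16 weeks later. The TET2KD cells came from recipients of TET2 knock-down fetal liver of the same embryonic age, studied at 10 weeks. The background strain of both is C57B6. The study's other arrays carry JAK2V617F transgenic donor cells at 16 weeks and cells labelled Double mutant at 13 weeks, read here as carrying both changes, which the labels do not spell out. They are used below only as a second pair with and without the knock-down that shares no array with the first.

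The design text gives 5 mice for each genotype but each genotype has 1 array, and whether RNA was pooled is not given in the sources used here. Nor is it given how the knock-down was made, in which cells it acts, or what share of the sorted cells was left from the irradiated host. There are therefore no replicates and no p-values, the number of arrays limits the precision, and "higher" and "lower" describe these arrays. Genotype and weeks after transplantation (10 against 16) cannot be told apart, and in a bulk sample fewer cells of a type and less RNA per cell cannot be told apart either.

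TET2 is a dioxygenase that oxidises 5-methylcytosine in DNA, a first step towards loss of the methyl mark, and so works against the methyltransferases DNMT1, DNMT3A and DNMT3B. Loss of TET2 is a frequent event in human clonal hematopoiesis and myeloid neoplasms. In mice it is known for an enlarged LSK compartment, stronger self-renewal in transplantation and a tilt towards myeloid output.

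Signals below are multiples of the array's own 75th percentile over probes. A probe was compared where it stood well above background on at least 1 of the 2 arrays, which kept 32195 of 55681 probes and 14340 of 22624 named genes. Where the dim array did not measure a gene the fold is a bound, written "at least". On the TET2KD array 2280 genes (15.9%) were at least 2-fold higher than on the WT array and 2507 (17.5%) at least 2-fold lower, with a median log2 difference over all genes of -0.05. These shares are the background for every count of genes below. Of the arrays' spots, 51.5% (WT) and 49.4% (TET2KD) were well above background. Repeat spots of 1 probe had a log2 SD of 0.157 on WT and 0.151 on TET2KD, which covers the array but not the amplification or the animals.

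Probes placed at different points of a gene showed how far a single gene can be read. Distances here and below are between probe start positions on the genome, introns included. Probes far apart there can lie closer in the transcript. Among 438 pairs of probes less than 100 bases apart, 84.7% differed between the arrays in the same direction (Spearman 0.79 across pairs). Among 3035 pairs at least 500 bases apart the share was 51.2% (Spearman 0.02), and it was 54.2% in 1065 such pairs whose signals all lay above the 75th percentile. Across 13231 genes the TET2KD minus WT difference and the Double mutant minus JAK2V617F difference had a Spearman coefficient of 0.02, with 51.4% in the same direction. All probe pairs come from the same WT and TET2KD arrays, and all genes of a comparison from that comparison's arrays, so neither are replicates. The comparisons TET2KD minus WT and Double mutant minus JAK2V617F share no array. Distant probes of a gene therefore mostly gave unrelated differences, and the folds of single genes below hold for the probes measured, which sit mostly at 1 place in a transcript.

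**Figure D1:**
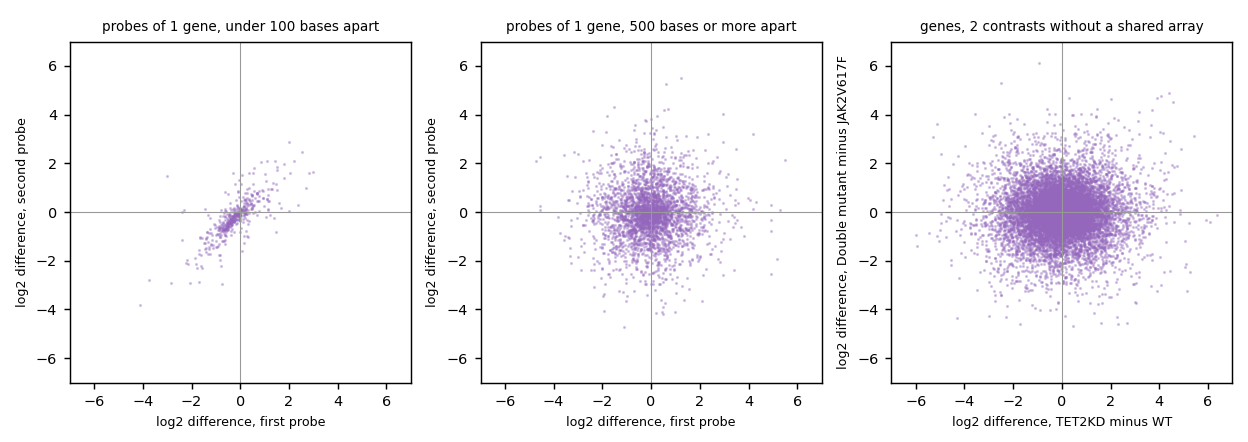
Each point is a pair of probes of 1 gene (left and middle) or a gene (right), and the axes are log2 differences. Neighbouring probes lie along the diagonal (438 pairs), whereas 3035 distant pairs and the 13231 genes set against Double mutant minus JAK2V617F form round clouds.

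Tet2 itself was lower on the TET2KD array at both of its measured probes, so the array went the way of its label. The probe at chr3:133126905-133126964 (mm9, minus strand) read 2.23 on WT and 0.608 on TET2KD, 27.3% of the WT signal. The neighbouring probe, at chr3:133126751-133126810, read 4.17 and 2.35, or 56.3%. Both probes were also lower on the Double mutant array (1.35 and 2.57) than on the JAK2V617F array (1.63 and 4.40). The remaining Tet2 probe, at chr3:133176421-133176479, was not well above background on either WT or TET2KD. In the second pair it went the other way, above background on Double mutant (0.293) and not on JAK2V617F (0.063). Which exon or untranslated part these positions fall in was not looked up, because no annotation of that build was used here, and a probe outside an altered stretch would not report on it.

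Among the other genes that write, read or erase DNA methylation, Dnmt3b and Gadd45a stood furthest apart in opposite directions among those measured on both arrays. The 3 probes of Dnmt3b, a de novo methyltransferase, were all lower on TET2KD, at 1.4 against 3.4, 1.64 against 3.94 and 1.82 against 9.25, and Dnmt3b averaged 3.09-fold lower. Dnmt3a, the other de novo enzyme, was higher, at 0.222 on WT and 0.559 on TET2KD (2.52-fold). Dnmt1, the maintenance enzyme, read 0.951 and 0.697 (1.36-fold lower). The de novo enzymes thus moved apart on these arrays while the maintenance enzyme stayed within 2-fold. Dnmt3a rests on a single probe that was dim on WT. With normexp background correction its difference was 0.557 log2, under 2-fold, against 1.33 as scaled here, and that of Dnmt3b was -1.37. In the second pair the 3 Dnmt3b probes disagreed, at 4.60, 2.80 and 5.56 on JAK2V617F and 1.35, 3.09 and 2.98 on Double mutant, and Dnmt3a was not higher there (0.683 against 0.883).

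The TET relatives did not give 1 direction. The probes of Tet1 differed by -2.73, 0.59 and -1.65 on the log2 scale, and those of Tet3 by 0.10 and -1.85. Gadd45a, a stress gene linked to active demethylation, was 5.99-fold higher (1.1 to 6.57), and Mbd3, a subunit of the NuRD repressor complex, was 2.44-fold higher (2.13 to 5.21). Idh1, whose product supplies the cofactor 2-oxoglutarate in the cytosol, was not well above background on WT and read 0.82 on TET2KD, at least 6.61-fold higher, whereas its mitochondrial relative Idh2 was lower, at 22.6 and 12. Apobec1, a cytidine deaminase, was 2.47-fold lower (4.51 to 1.82), and Cxxc5, a CXXC-domain partner of the TET pathway, was at least 2.67-fold lower. Uhrf1, which guides DNMT1 to hemimethylated DNA, had probes at 0.93 and -0.12 log2. Of the 19 measured genes of this list, 4 passed 2-fold on the higher side and 5 on the lower, and the median was -0.45.

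**Figure D2:**
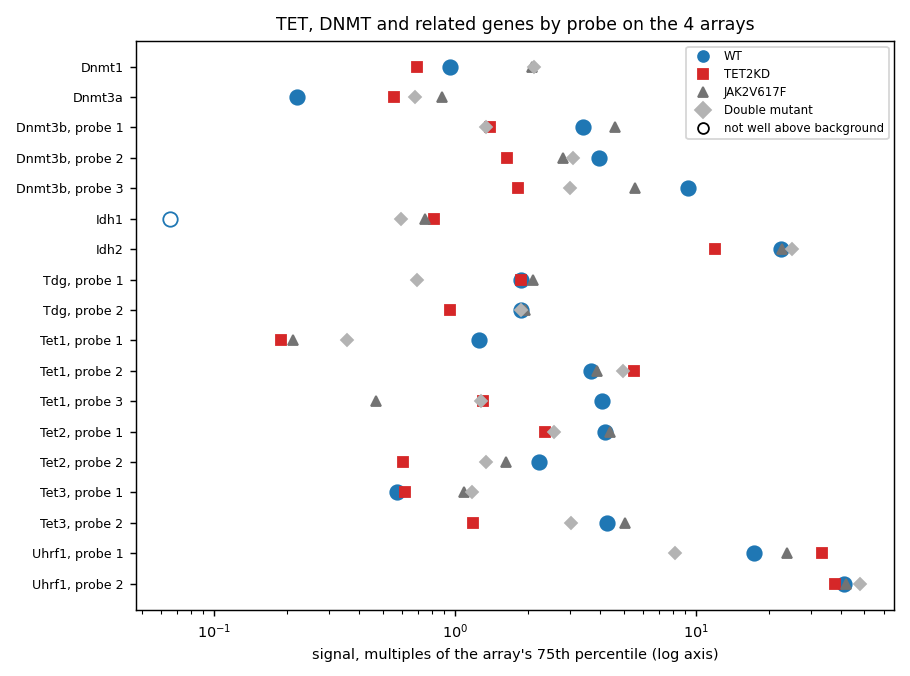
Signal of each measured probe on the 4 arrays, in multiples of the array's 75th percentile on a log axis, with open symbols for signals not well above background. TET2KD (red) lies left of WT (blue) at both Tet2 probes and all 3 Dnmt3b probes, while the 3 probes of Tet1 disagree.

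The gene lists, laid side by side by their median difference, set late granule, monocyte, plasma cell and class II genes on the higher side and mitochondrial, cytokine receptor and mast cell genes on the lower side. Secondary and tertiary granule genes had a median of 0.71 and monocyte and dendritic genes one of 0.68. At the other end, respiratory complexes II and III had a median of -0.73, and mast cell, basophil and eosinophil genes, still inside the range of all genes, one of -0.51. The interquartile range of all genes ran from -0.68 to 0.62, and besides the first 3 of these the medians outside it were those of NK and innate lymphoid genes (0.99), plasma cell genes (0.90) and MHC class II genes (0.63). With normexp background correction, which drew the range of all genes in to -0.382 and 0.322, the granule median was 0.332 and the monocyte one 0.318. With the brightest probe of each gene they were 0.442 and 0.553, both inside that setting's range (-0.715 to 0.626).

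**Figure D3:**
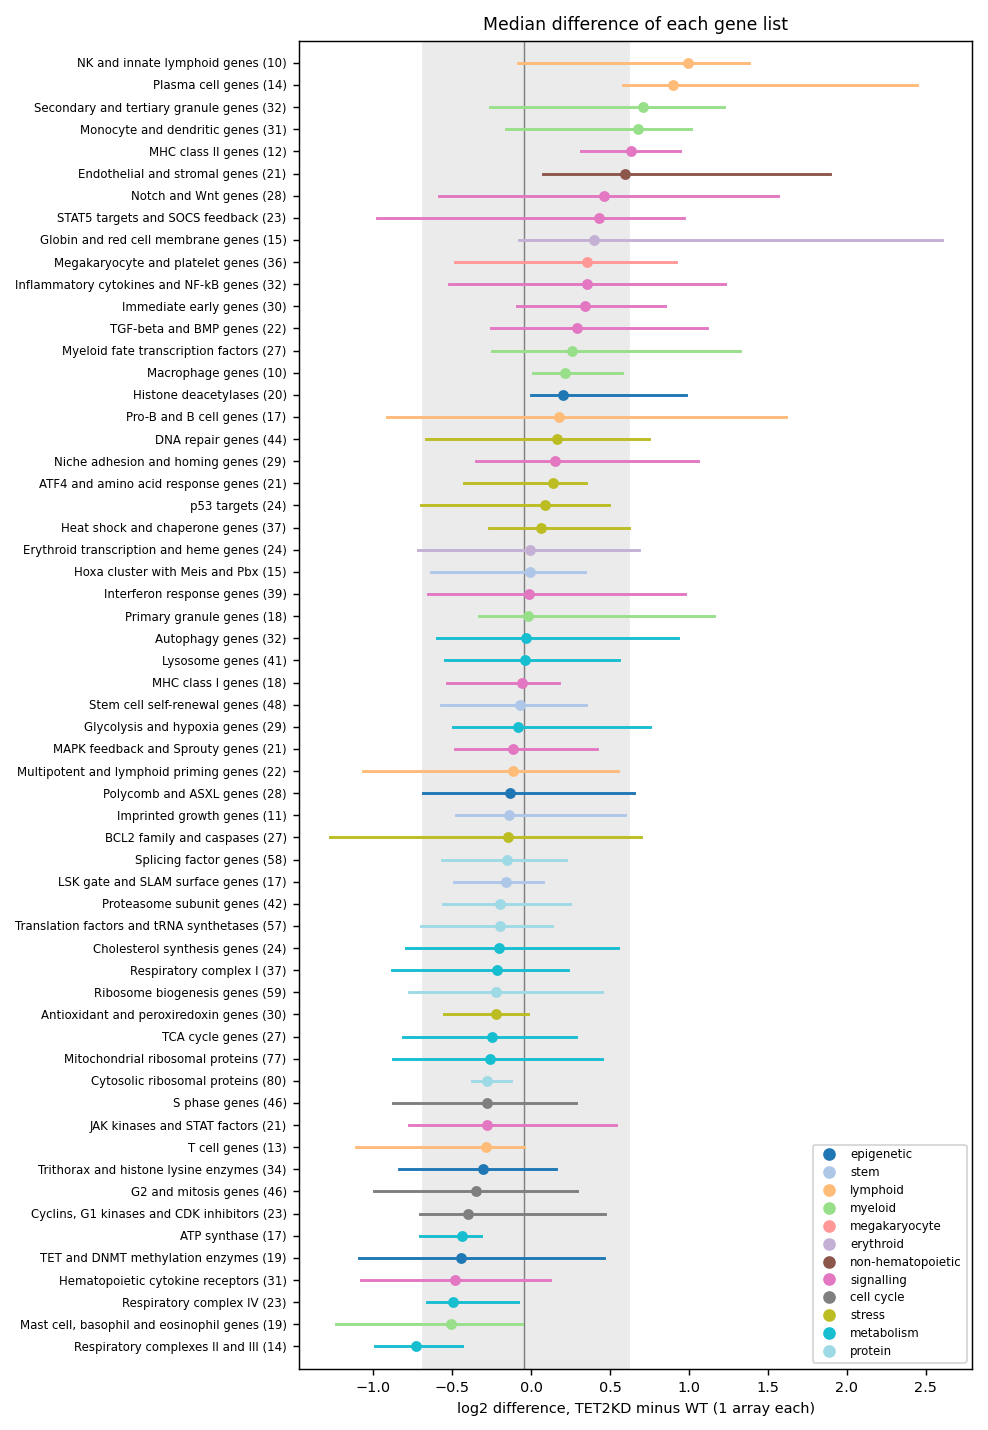
Median log2 difference of each list (point) with its interquartile range (bar) on the TET2KD array minus the WT array, the number of measured genes in brackets and colours for the kind of list. The grey band is the interquartile range over all 14340 genes (-0.68 to 0.62) and the line their median (-0.05).

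Neutrophil granule genes of the secondary and tertiary sets were more often higher than lower on the TET2KD array, and the primary set was split. Primary (azurophil) granules are loaded at the promyelocyte stage, and secondary and tertiary granules later, in myelocytes and maturing neutrophils. Of 32 measured secondary and tertiary granule genes, 12 (37.5%) passed 2-fold on the higher side and 4 (12.5%) on the lower. Of 18 measured primary granule genes, 5 were higher and 1 lower, with a median of -0.02. C/EBP factors and PU.1 are known drivers of granule genes, and their part in the differences here was not tested. The promoters of 4 genes with large differences are shown first. Each is the 250 bases before the RefSeq start in GRCm38.p6, 5′ to 3′ on the gene's strand, with matches to TTGCNNAA (a C/EBP core) or GAGGAA (a PU.1 core) on either strand in capitals. Ltf lies at chr9:111019042-111019291 (plus strand), Ngp at chr9:110419558-110419807 (plus), Chil3 at chr3:106167565-106167814 (minus) and Elane at chr10:79886062-79886311 (plus).
Ltf: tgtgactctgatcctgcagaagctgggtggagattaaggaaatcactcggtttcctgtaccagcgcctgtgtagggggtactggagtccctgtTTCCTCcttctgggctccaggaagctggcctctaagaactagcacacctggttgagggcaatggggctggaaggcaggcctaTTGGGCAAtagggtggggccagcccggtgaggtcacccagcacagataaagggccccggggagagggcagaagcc
Ngp: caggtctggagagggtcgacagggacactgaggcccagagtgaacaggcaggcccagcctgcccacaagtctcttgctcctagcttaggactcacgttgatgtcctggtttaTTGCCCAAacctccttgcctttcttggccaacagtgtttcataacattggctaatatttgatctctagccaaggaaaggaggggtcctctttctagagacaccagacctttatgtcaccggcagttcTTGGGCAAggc
Chil3: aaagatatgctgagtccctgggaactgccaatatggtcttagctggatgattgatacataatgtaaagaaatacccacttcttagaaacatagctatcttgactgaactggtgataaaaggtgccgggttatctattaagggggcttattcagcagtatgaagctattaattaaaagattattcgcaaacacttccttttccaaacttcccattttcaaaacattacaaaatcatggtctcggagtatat
Elane: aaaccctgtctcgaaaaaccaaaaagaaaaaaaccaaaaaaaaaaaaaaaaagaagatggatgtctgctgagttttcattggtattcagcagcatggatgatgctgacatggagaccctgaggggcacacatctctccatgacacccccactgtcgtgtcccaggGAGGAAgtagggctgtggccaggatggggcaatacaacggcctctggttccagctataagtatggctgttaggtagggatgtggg
The window of Ltf holds 1 C/EBP match, 75 to 68 bases before the start, and 1 PU.1 match, that of Ngp 2 C/EBP matches, that of Elane 1 PU.1 match, and that of Chil3 neither. Over all 32851 RefSeq promoters of this length, 9.56% hold a C/EBP match, 23.2% a PU.1 match and 2.07% both. A match is a description of the letters and not a binding site.

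Among the late granule proteins, Ltf, the iron-binding lactoferrin, read 0.343 on WT and 2.95 on TET2KD, 8.62-fold higher. Chil3, a chitinase-like secreted lectin, went from 0.816 to 5.2 (6.37-fold), and Ngp, the neutrophilic granule protein, from 2.4 to 8.86 (3.69-fold). All of these were also higher in Double mutant than in JAK2V617F, Chil3 by 6.06-fold and Ngp by 3.9-fold, and Ltf by at least 13.3-fold. Wfdc21, a small protease-inhibitor-like protein, was 3.68-fold higher (0.593 to 2.18), and Lrg1, a secreted glycoprotein, 3.63-fold (0.194 to 0.703). Camp, the cathelicidin precursor, rounded out the set at 0.846 and 2.55. S100a8, a subunit of calprotectin, read 6.89 and 14.8, and its partner S100a9 38.5 and 52.9.

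Not every late granule gene lay on that side. Lcn2, a siderophore-binding lipocalin of the same granules, was lower, at 15 on WT and 8.77 on TET2KD. Il1r2, the decoy receptor for interleukin 1, was 3.14-fold lower (1.25 to 0.397), and Padi4, the histone deiminase of neutrophil traps, 2.07-fold (0.753 to 0.364). The chemoattractant receptors Ltb4r1 and Cxcr2 were not well above background on TET2KD, at least 15-fold and 2.32-fold lower. Of the 4 members at least 2-fold lower, all but Padi4 are receptors. Csf3r, the receptor for the neutrophil growth factor G-CSF, read 313 and 358.

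In the primary set, 3 serine proteases were among the 5 higher members. Elane, neutrophil elastase, read 1.62 on WT and 10.1 on TET2KD (6.27-fold higher), Ctsg, cathepsin G, 6.14 and 22.6 (3.67-fold), and Prtn3, proteinase 3, 2.16 and 5.41 (2.51-fold). Lyz2, a lysozyme, was 2.86-fold higher (0.651 to 1.86), and Bpi, a bactericidal protein, at least 2.32-fold. Mpo, myeloperoxidase, lay just under the threshold, at 14.7 and 29.4. Cst7, an inhibitor of granule proteases, was the 1 member at least 2-fold lower (1.94 to 0.487, 3.99-fold). Elane, Ctsg, Prtn3 and Mpo read 7.77, 60.2, 12.6 and 51.1 on JAK2V617F and 9.22, 74.4, 12.7 and 58.5 on Double mutant.

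Monocyte and dendritic genes were at least 2-fold higher in 9 of 31 (29.0%) and lower in 1. Igsf6, an immunoglobulin-superfamily membrane protein of myeloid cells, read 0.443 on WT and 2.22 on TET2KD (5.02-fold), Ly6c1, which encodes a Ly6C surface antigen, 11.5 and 23.3, and Mpeg1, the pore-forming perforin-2, 2.06 and 4.14. Ly86, the partner of the toll-like protein RP105, was at least 6.16-fold lower. Csf1r, the receptor for M-CSF, was 2.92 on WT and 1.74 on TET2KD, with probes that disagreed in direction. The macrophage list, with 10 measured genes, had 1 higher (Slc11a1, a metal transporter of phagosomes, at least 3.03-fold) and 1 lower (Lpl, lipoprotein lipase, at least 2.41-fold).

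Transcription factors of the granulocyte and monocyte fates were at least 2-fold higher in 8 of 27 (29.6%) and lower in 1. Spi1, which encodes PU.1, read 6.14 on WT and 17.9 on TET2KD (2.92-fold higher), and Cebpa, the C/EBP factor needed for granulocyte progenitors, 2.15 and 4.72 (2.19-fold). Klf4, which acts in monocyte differentiation, was 2.85-fold higher (6.25 to 17.8), Irf5, a factor of inflammatory macrophages, 5.56-fold (1.85 to 10.3), and Cebpd 4.8-fold (0.138 to 0.663). Of all 27 factors, 17 lay above 0 and 10 below, with a median of 0.26. Gfi1, a repressor that favours granulocytes over monocytes and restrains stem cell cycling, was 4.22-fold lower (2.4 to 0.568). In the second pair Spi1 read 8.87 and 11.7, Cebpa 14.1 and 5.66, and Gfi1 1.88 and 2.54 on JAK2V617F and Double mutant.

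**Figure D4:**
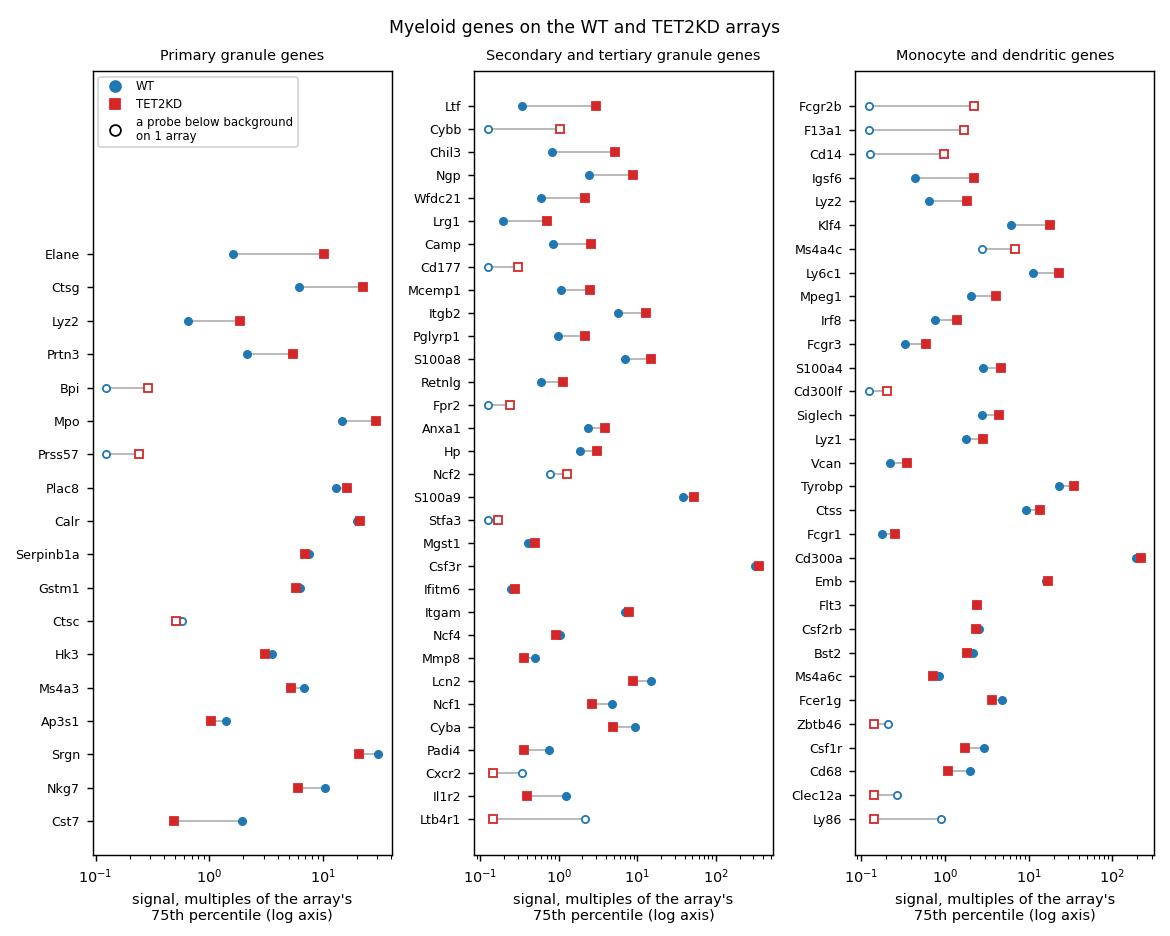
Every measured member of 3 myeloid lists on the WT array (blue circles) and the TET2KD array (red squares), in multiples of the array's 75th percentile on a log axis, ordered by difference; open symbols mark genes with a probe below background on 1 array. Ltf, Chil3 and Ngp lie in the upper part of the middle panel and the proteases Elane and Ctsg at the top of the left one, while Il1r2, Ltb4r1, Cst7 and Ly86 lie at the bottom.

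The gate of these cells excludes mature blood cells, so the defining markers of those cells were read next, for whole lists. Of 10 LSK and stem cell markers, 9 were above background on both arrays and Slamf1 on neither, and their summed signal was 117 on WT and 90.0 on TET2KD. Neutrophil markers summed to 64.3 on WT and 92.5 on TET2KD, with 6 of 6 above background on both. Red cell markers summed to 1.42 and 23. Plasma cell markers summed to 0.829 (1 of 4 above background) and 8.72 (4 of 4). B cell markers summed to 18.5 and 1.54, with Ms4a1, the B cell surface antigen CD20, below background on both. T cell markers summed to 7.42 and 6.94, with Cd3d, Cd3g and Cd8a below background on both. Endothelial markers summed to 7.16 and 14.2 and stromal markers to 4.45 and 7.15, with Cdh5, the endothelial cadherin, and Col1a1, collagen I, below background on both. Platelet markers summed to 2.10 and 5.73, macrophage markers to 2.30 and 3.63 (C1qc below background on both), and NK cell markers to 30.4 and 15.2, with Ncr1 and Klrb1c below background and Nkg7, which is in the primary granule list too, carrying the sum. Markers of neutrophils, plasma cells and red cells were thus higher on the TET2KD array beside the myeloid genes above, and their part in those differences was not tested.

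Sex-linked transcripts also differed between the arrays. Xist, the X-inactivation RNA, read 47.4 on WT and 3.08 on TET2KD at 1 probe, and 3.70 on WT against a signal below background on TET2KD at its other probe. It read 16.6 on JAK2V617F and 0.346 on Double mutant at the first. The Y-linked gene Eif2s3y read 0.619 on WT and 0.523 on TET2KD, Ddx3y was above background on TET2KD alone of this pair (0.417), Uty on WT alone, and Kdm5d on neither. The labels do not give the sex of donors or recipients, and its part in any difference here was not tested.

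Among plasma cell genes, 6 of 14 (42.9%) passed 2-fold on the higher side and 0 on the lower, and the median was 0.90. Plasma cells are the antibody-secreting end stage of the B cell line. Jchain, the joining chain of secreted antibodies, read 0.687 on WT and 4.63 on TET2KD (6.74-fold). Tnfrsf17, the survival receptor BCMA, was at least 16.2-fold higher and Mzb1, a chaperone of antibody assembly, at least 8.8-fold, both below background on WT. Derl3 and Creld2, which serve protein folding in the endoplasmic reticulum, were 2.86-fold and 2.58-fold higher. The transcription factors of the plasma cell fate differed less, Xbp1 reading 3.07 and 5.41 and Prdm1 8.34 and 10.8. In the second pair Jchain was 10.3-fold higher on Double mutant (3.2) than on JAK2V617F (0.31).

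Early B cell genes were split. Cd79a, a signalling chain of the B cell receptor, read 16.5 on WT and 0.524 on TET2KD, 31.4-fold lower, and its partner Cd79b 1.62 and 0.345. The surrogate light chain gene Vpreb1 was at least 26.7-fold lower and Vpreb2 at least 3.08-fold. Its companion Igll1 was at least 9.4-fold higher, as were Spib, a relative of PU.1 (9.79-fold at least), and Blnk, an adaptor of the receptor (3.6-fold at least). Members that work in 1 receptor complex therefore lay on both sides, and of 17 measured genes 6 were higher and 4 lower, with a median of 0.18. The median was -0.06 over the 6 genes measured on both arrays at every probe, and 7 genes were bounds. Among genes of multipotent and lymphoid-primed progenitors, Sox4, Bcl11a and Satb1, factors of lymphoid priming, were 3.11-fold, 2.68-fold and 2.41-fold lower, and Ltb, a lymphotoxin, 3.46-fold higher. Of 22 such genes, 3 were higher and 6 (27.3%) lower, with a median of -0.12.

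T cell genes numbered 1 higher and 4 lower of 13, Cd28, a costimulatory receptor, being 4.75-fold higher and Cd247, the zeta chain, 3.51-fold lower. Of 10 measured NK and innate lymphoid genes 5 were higher, of which Gzmb (granzyme B), Klrd1 and Klra4 (NK receptors) were below background on WT and Tbx21, the factor T-bet, read 0.312 and 0.829. The median of 0.99 rests largely on such bounds and was 0.28 over the 5 genes measured on both arrays.

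MHC class II genes were higher in 11 of 12 measured members, 3 of them at least 2-fold, and none was at least 2-fold lower. H2-DMb1 and H2-DMa, which load peptide onto class II, were 2.61-fold and 2.05-fold higher, and Ifi30, the thiol reductase of antigen processing, 2.95-fold. The class II chains H2-Aa and H2-Ab1 read 7.54 and 11.7 on WT and 12 and 22 on TET2KD, and Cd74, the invariant chain, 20.0 and 30.1. Ciita, their master regulator, was 5.78 on WT and 6.86 on TET2KD. The class II median was 0.63 in this pair and 1.18 for Double mutant minus JAK2V617F. Class I genes had a median of -0.06, with H2-M3 6.23-fold higher and the peptide transporter subunits split, Tap1 2.18-fold higher and Tap2 3.26-fold lower.

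Globin and red cell membrane genes were more often higher than lower on the TET2KD array, while erythroid transcription and heme genes were split. Hba-a1, an alpha globin, read 1.16 on WT and 17.5 on TET2KD (15.1-fold higher), and Slc4a1, the band 3 anion exchanger of the red cell membrane, 0.191 and 4.51 (23.6-fold). Hba-a2 was at least 42.3-fold higher and Hbb-b2, a beta globin, 4.61-fold; globin copies are near-identical and their probes may share signal. Of 15 measured globin and membrane genes 7 (46.7%) were higher and 0 lower. Gata1, the factor that drives red cell, megakaryocyte, mast cell and eosinophil fates, was 25.8-fold lower (4.54 to 0.176). Of the heme enzymes, Cpox and Fech were 2.18-fold and 2.07-fold lower, Urod 6.6-fold higher and Alas2, the first enzyme of heme synthesis in red cells, at least 2.25-fold higher. Of 24 measured erythroid transcription and heme genes 4 (16.7%) were higher and 5 (20.8%) lower, near the shares of all genes, and Gata1 was measured at 1 place only. Slc4a1 and Hba-a1 were also higher in Double mutant than in JAK2V617F, by 23.1-fold and 25.8-fold, although the list's median there was -0.25.

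Megakaryocyte and platelet genes were at least 2-fold higher in 8 of 36 (22.2%) and lower in 4. Pf4, a platelet chemokine, read 1.55 and 5.04 (3.25-fold higher), F2r, a thrombin receptor, 1.34 and 4.58 (3.41-fold), and Fermt3, the integrin activator kindlin-3, 2.56 and 10.0 (3.91-fold). Fli1, a transcription factor of the lineage, was 3.01-fold lower, and Nbeal2, needed for platelet alpha granules, 2.39-fold. Endothelial and stromal genes were higher in 7 of 21 (33.3%) and lower in 0, led by Col4a1, a basement membrane collagen (9.32-fold), and Emcn, a sialomucin of sinusoidal endothelium that stem cells can also carry (9.04-fold). Their median was 0.59, and 0.37 over the 15 genes measured on both arrays at every probe. In the second pair the medians of both lists had the opposite sign, -0.45 and -0.29.

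Genes of the gate and of stem cell self-renewal did not shift as a group. The 17 measured gate and SLAM genes had a median of -0.16 and the 48 self-renewal genes one of -0.07, with 7 higher and 7 lower. Ly6a, which encodes Sca-1, was 2.44-fold higher (4.38 on WT, 10.7 on TET2KD), and Kit read 18.2 and 14.1. Both gate genes were thus clearly measured on both arrays. Procr, the stem cell marker EPCR, was 2.6-fold lower (5.75 to 2.21), Prom1, prominin-1, 2.81-fold and Cd48, a SLAM antigen of progenitors, 2.1-fold. Angpt1, the ligand of the quiescence receptor Tie2, was 2.35-fold lower (26.7 to 11.4), and Trpc6, a cation channel, 2.9-fold. Hlf and Meis1, transcription factors of long-term stem cells, read 19.8 and 8.98 on WT and 14.8 and 5.46 on TET2KD. Cavin2, a caveolar protein, was 4.41-fold higher. The Hoxa, Meis and Pbx genes had a median of -0.01 with 2 higher and 1 lower of 15, Pbx2 being 3.64-fold higher and Pknox1 3-fold lower. In Double mutant minus JAK2V617F the same 15 genes had a median of -1.08. Of 11 imprinted growth genes 1 was higher and 2 lower.

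Receptors for hematopoietic cytokines were at least 2-fold lower in 9 of 31 (29.0%) and higher in 2. Ifngr2, a chain of the interferon gamma receptor, read 9.57 on WT and 2.28 on TET2KD (4.2-fold lower), and Il3ra, the alpha chain for interleukin 3, 6.17 and 1.7 (3.63-fold). Il6st, the shared gp130 chain, was 3.03-fold lower (3.98 to 1.31), Tnfrsf1a, a receptor of TNF, 2.45-fold and Il21r 2.12-fold. Lower members thus belonged to several receptor families, of interferon, TNF, interleukin 3 and interleukin 6. Il10ra and Il13ra1 were at least 12.1-fold and 7.28-fold higher from below background on WT. The median of -0.48 compares with -0.16 for Double mutant minus JAK2V617F, where 8 were higher and 3 lower.

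Mast cell, basophil and eosinophil genes were at least 2-fold lower in 7 of 19 (36.8%) and higher in 0. Ear1, Ear2 and Ear10, eosinophil-associated ribonucleases, read 49.7, 18.8 and 30.0 on WT and 21.1, 8.02 and 14.7 on TET2KD; these copies are alike in sequence, so their signals may not be separate. Alox15, a lipoxygenase of eosinophils, was at least 5.77-fold lower, and Gata1 is counted here too. The granule proteins Prg2 and Epx, major basic protein and eosinophil peroxidase, differed little, at 169 and 25.4 on WT and 143 and 22 on TET2KD. In the second pair the list lay on the other side, with a median of 0.76 and 8 of 17 genes higher.

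Respiratory chain genes lay below 0 more often than above it, most evenly in complexes II and III, while 52.4% of all genes lay below 0. These complexes pass electrons from succinate and ubiquinol to cytochrome c. Of 14 measured genes 13 were lower and 4 of them at least 2-fold. Uqcrc1, Uqcrc2 and Uqcrfs1, the core subunits and the Rieske protein of complex III, read 5.78, 16.4 and 11.4 on WT and 2.47, 7.39 and 4.91 on TET2KD, between 2.22-fold and 2.35-fold lower. Sdha, the catalytic subunit of succinate dehydrogenase, was 2.04-fold lower (9.22 to 4.51). Cyc1, cytochrome c1, was the exception at 2.13 and 2.47. The median was -0.73 here and -0.27 in the second pair, where 0 of 14 passed 2-fold.

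Complex I, the NADH dehydrogenase, had 8 of 37 genes at least 2-fold lower and 1 higher. Ndufa2, an accessory subunit, read 26.6 on WT and 9.51 on TET2KD (2.79-fold lower), Ndufa3 was 2.77-fold, Ndufc1 2.6-fold, Ndufb2 2.41-fold and Ndufc2 2.39-fold lower, and Ndufa6 2.28-fold higher. The subunits past 2-fold were mostly accessory ones, while the core subunits Ndufs1 and Ndufv1 read 2.83 and 5.37 on WT and 4.05 and 4.9 on TET2KD. In complex IV, cytochrome c oxidase, 18 of 23 genes were lower and 4 (17.4%, near the 17.5% of all genes) at least 2-fold, among them Cox10, which makes its heme (2.15-fold), while Sco2, a copper chaperone, was 3.65-fold higher. ATP synthase genes were lower in 15 of 17, of which 3 (17.6%, again near the share of all genes) at least 2-fold, with Atp5j2 and Atp5k, membrane-part subunits, 2.36-fold and 2.02-fold lower and the catalytic subunits Atp5a1 and Atp5b at 62.3 and 6.91 on WT and 49.9 and 5.1 on TET2KD. TCA cycle genes were divided, with 4 higher and 4 lower of 27. Dlat, a subunit of pyruvate dehydrogenase, was 6.49-fold, Fh1, fumarase, 2.76-fold and Ogdh 2.22-fold lower, and Idh3a 6.41-fold and Pdk3, which inhibits pyruvate dehydrogenase, 3.16-fold higher.

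Ribosomal proteins showed a small, even difference. Of 80 cytosolic ribosomal protein genes, 76 were lower on TET2KD, with a median of -0.28 and an interquartile range of -0.38 to -0.13. The median was -0.174 with quantile scaling and -0.179 with normexp. Only Rpl13a (2.05-fold lower, 20.8 to 10.1) and Rpl21 (3.04-fold higher, with probes that disagreed) passed 2-fold. These genes gave strong signals, and the 1005 genes with the strongest signals of those measured on both arrays had a median of -0.08 and an interquartile range of -0.37 to 0.14. In the second pair the ribosomal median was -0.09, and 65 of 80 genes had the same direction in both. Mitochondrial ribosomal proteins, by contrast, were scattered, with 12 of 77 past 2-fold on the higher side and 17 on the lower, from Mrpl37 (16.2-fold higher) to Mrpl55 (18-fold lower) and Mrpl58 (31.9-fold lower).

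**Figure D5:**
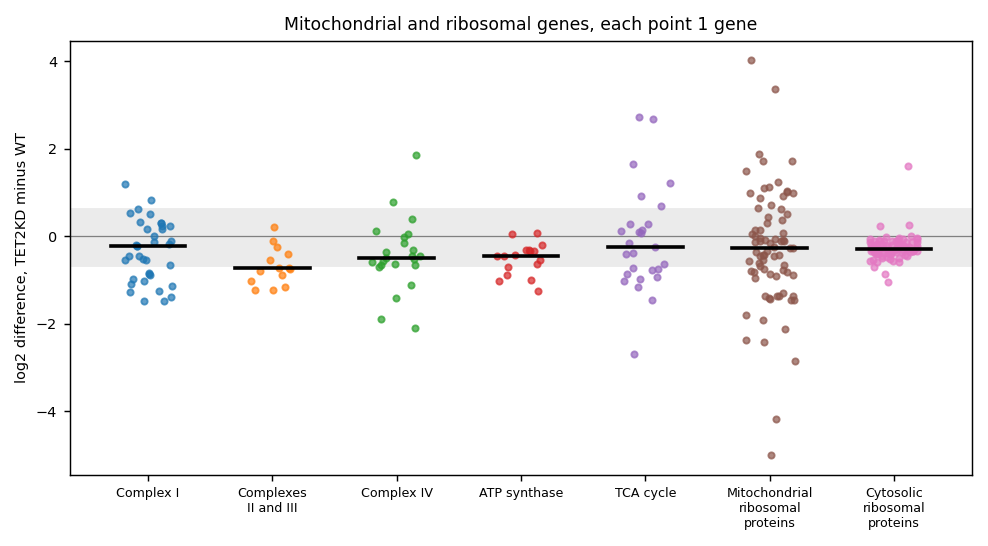
Log2 difference of each measured gene of 7 mitochondrial and ribosomal lists, TET2KD minus WT, with the list's median as a black bar and the interquartile range of all genes in grey. Complexes II and III (median -0.73) and ATP synthase (-0.44) lie mostly below 0, cytosolic ribosomal proteins lie close together just below 0 (-0.28), and mitochondrial ribosomal proteins are widely spread.

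Cell cycle genes passed 2-fold on the lower side at shares from 13.0% to 23.9% in 3 lists, around the 17.5% of all genes. Of 46 G2 and mitosis genes 11 (23.9%) were at least 2-fold lower and 6 higher, with a median of -0.35. Cdc20, which activates the anaphase-promoting complex, read 7.49 on WT and 0.887 on TET2KD (8.45-fold lower), Cenpe, a kinetochore motor, 2.33 and 0.211 (11.1-fold), and Smc2, a condensin subunit, 4.07 and 0.689 (5.91-fold). Aurka, a spindle kinase, and Foxm1, the factor that drives mitotic genes, were 4.99-fold and 4.67-fold lower. In the other direction Pttg1, securin, was 2.82-fold higher, and Cenpf and Espl1, separase, were below background on WT and at least 9.2-fold and 9.93-fold higher. Of 46 S phase genes 10 (21.7%) were lower and 3 higher. Pola1, the catalytic subunit of DNA polymerase alpha, was 3.53-fold lower (2.83 to 0.802), Cdc45 and Gins2, of the replicative helicase, 3.35-fold and 2.6-fold, Cdt1, which licenses origins, 2.94-fold, and Prim1, a primase, 2.86-fold, whereas Pola2, the partner of Pola1, was at least 15.3-fold higher. Of 23 cyclins, G1 kinases and inhibitors 3 (13.0%) were lower and 2 higher, with a median of -0.40; E2f2 was 2.7-fold and the pocket protein gene Rbl2 3.16-fold lower and E2f5 3.33-fold higher. Medians in the second pair were -0.20 for G2 and mitosis, -0.05 for S phase and 0.09 for the cyclin list.

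Feedback genes of cytokine signalling through JAK and STAT5 were divided. Cish and Socs3, inhibitors induced by STAT5 and STAT3, were 3.44-fold (2.06 to 0.6) and 3.84-fold (3.11 to 0.809) lower, and Pim1, a STAT5-induced kinase, 2.39-fold (7.01 to 2.94). Socs7 and Spred2, further inhibitors, were 7.98-fold and 8.4-fold lower. Socs4 and Pim3 were 2.17-fold and 2.12-fold higher and Socs2 at least 2.39-fold. In all, 6 of 23 were higher and 6 lower, so the targets did not share a direction, and the median was 0.43 over the list but -0.27 over the 16 genes measured on both arrays. Among the kinases and factors themselves, Stat5a was 2.71-fold higher (0.662 to 1.79) and Ptpn11, the phosphatase SHP2, 2.64-fold lower (4.32 to 1.64). Stam, a signal adaptor, was 3.96-fold lower.

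Among interferon response genes, 9 of 39 (23.1%) passed 2-fold on the higher side and 4 on the lower, and the median was -0.01. Ifit3 and Xaf1 were 4.03-fold and 2.94-fold higher, and Rsad2, viperin, 4.02-fold lower (5.08 to 1.26). Inflammatory and NF-kB genes were higher in 9 of 32 (28.1%) and lower in 3. Traf1 and Irak3, regulators of TNF and toll-like receptor signals, were 6.11-fold and 5.33-fold higher, Cxcl2, a neutrophil-attracting chemokine, 4.51-fold (0.39 to 1.76), and Tnf at least 15.1-fold from below background on WT. Il1b and Tlr4 were below background on TET2KD and at least 2.53-fold and 2.48-fold lower, and Relb, an NF-kB subunit, was 2.46-fold lower. Immediate early genes, which respond rapidly to growth factors, were higher in 6 of 30 and lower in 1, with Fosl1 (4.76-fold), Ier3 (2.94-fold) and Fosl2 (2.09-fold) higher and Egr3 4.05-fold lower. Fos, Jun and Egr1 differed little, at 83.8, 62.6 and 309 on WT and 77.3, 75 and 268 on TET2KD. MAPK feedback genes numbered 2 higher and 2 lower of 21.

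Notch and Wnt genes were at least 2-fold higher in 11 of 28 (39.3%) and lower in 3. Notch1 and Notch4, receptors, were 2.32-fold and 3.68-fold higher, the ligand gene Jag2 2.24-fold and Dtx3, a Deltex relative, 2.89-fold. Axin1, a scaffold of the beta-catenin destruction complex, was 4.52-fold higher (2.37 to 10.7) and Dvl1, which acts against that complex, 6.75-fold lower (2.6 to 0.386). Over the list 16 genes lay above 0 and 12 below, and 19 of the 28 were measured on both arrays at every probe. For Double mutant against JAK2V617F the counts past 2-fold were 2 on the higher side and 5 on the lower, and the median was -0.02. TGF-beta and BMP genes were higher in 7 of 22 and lower in 2. The receptor genes Bmpr2 and Tgfbr2 were 6.76-fold and 2.07-fold higher, as were Smad2 (3.87-fold) and the Smad corepressor Ski (3.03-fold), and the coreceptor Tgfbr3 was 6.7-fold lower. Niche adhesion genes were higher in 8 of 29 and lower in 2, with the integrin chains Itgal and Itgb2, which pair as LFA-1, 3.7-fold and 2.28-fold higher, Cd44, a hyaluronan receptor, 2.53-fold and S1pr1, a receptor for exit into blood, 2.68-fold.

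Trithorax and histone lysine enzymes were at least 2-fold lower in 7 of 34 (20.6%) and higher in 0. Setd1b, an H3K4 methyltransferase, was 3.23-fold lower (4.4 to 1.36), Nsd1, an H3K36 methyltransferase, 2.2-fold, and the acetyltransferase Kat2b and the methyltransferase Setdb1 at least 7.95-fold and 5.43-fold. Histone deacetylases were higher in 5 of 20 (25%) and lower in 0, with Hdac8 at 1.25 on WT and 42.5 on TET2KD (34.1-fold), Sirt6 3.33-fold and Hdac9 2.97-fold higher. The counts in Double mutant against JAK2V617F were 5 and 4 for the lysine enzymes and 4 and 3 for the deacetylases, higher first. Polycomb and ASXL genes were split at 5 and 5 of 28. Asxl1, which is mutated in myeloid neoplasms alongside TET2, was 3.43-fold higher (0.698 to 2.39), Ring1 and Cbx2, of the PRC1 complex, 3.87-fold and 3.81-fold higher, and Pcgf5 2.38-fold lower.

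Death, repair and stress genes gave counts mostly near the background of 15.9% higher and 17.5% lower. Of 27 BCL2 family and caspase genes 5 were higher and 7 lower, with Casp8 4.8-fold lower, Xiap, a caspase inhibitor, 4.3-fold lower and Pmaip1, the death gene NOXA, 3.37-fold higher. Of 24 p53 targets 5 were higher and 5 lower, with Aen, an apoptosis-enhancing nuclease, 7.41-fold lower (13.8 to 1.87). DNA repair genes numbered 9 higher and 7 lower of 44. The mismatch repair genes Msh3 and Pms2 were 9.49-fold and 2.93-fold higher, while Prkdc and Lig3, of end joining and base excision repair, were 3.72-fold and 3.67-fold lower. Lig4, also of end joining, had the highest difference of the list, at 3.97 log2 (1.87 with normexp). Heat shock genes numbered 5 higher and 4 lower of 37, with Hspa1a 10.1-fold (0.641 to 6.48) and the endoplasmic reticulum chaperones Dnajc3 and Dnajb11 3.74-fold and 3.07-fold higher. Antioxidant genes were lower in 22 of 30, 5 of them at least 2-fold. Nqo1, a quinone reductase, was 15.8-fold lower (2.85 to 0.181), Srxn1, sulfiredoxin, 4.69-fold and Prdx1 and Prdx3, peroxiredoxins, 2.4-fold and 2.86-fold, whereas Nfe2l2, which encodes their activator NRF2, was 2.37-fold higher. Of 21 genes of the ATF4 and amino acid response 2 were higher and 2 lower.

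In the remaining metabolic and protein lists, the counts of higher and lower members were 6 and 3 of 29 for glycolysis and hypoxia, 1 and 5 of 24 for cholesterol synthesis, 6 and 7 of 41 for lysosome, 7 and 4 of 32 for autophagy and 2 and 3 of 42 for proteasome genes. Vegfa, the vascular growth factor, was 11.3-fold higher (0.577 to 6.53), the phosphofructokinase genes Pfkl and Pfkp 4.31-fold and 4.2-fold higher and Pfkm 3.82-fold lower. Tfeb, the master regulator of lysosomal genes, was 5.09-fold higher. Ribosome biogenesis genes were higher in 6 and lower in 12 of 59, translation factors and tRNA synthetases in 2 and 8 of 57, and splicing factors in 2 and 6 of 58. Sf3b1 and U2af2, splicing factors of which the first is often mutated in myeloid neoplasms, were 2.45-fold and 2.5-fold lower, and the tRNA synthetase genes Cars, Iars and Mars1 7.23-fold, 2.55-fold and 2.41-fold lower.

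Genes with several probes were examined apart, given the weak agreement of distant probes. This took in 2464 genes with at least 2 compared probes, all of them well above background on both arrays. Every probe was at least 2-fold higher in 65 of these genes (2.64%) and lower in 112 (4.55%). The genes named next were picked because every probe passed 2-fold. Agreement among their probes follows from that rule and adds no evidence. How many such genes unrelated probes would give was not worked out. Vegfa had probes 7989 bases apart, at 2.97 and 4.03 log2. Nup188, a nuclear pore scaffold, read 0.728 on WT and 5.61 on TET2KD over 3 probes spread across 41722 bases. Sun1, a nuclear envelope protein (0.412 and 2.25), and Nupl1, another pore protein (0.711 and 3.74), were higher as well. On the lower side, Slc19a1, the reduced folate carrier, read 2.99 and 0.455 over 11615 bases, and Taok2, a stress kinase, 2.27 and 0.285 over 1892 bases. Other genes with every probe past 2-fold and widely spaced probes were Cobll1 (0.299 and 1.66 over 62675 bases) and Kansl1l (0.711 and 3.38 over 42456 bases), both higher, and Pcdhga9 (1653 bases) and Cfap410 (1023 bases), both lower. For Aen (probes 10 bases apart), Gsn, gelsolin (16 bases), and Lrrc75a (5 bases) the probes nearly coincide and count as about 1 measurement.

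Genes past 2-fold the same way in both pairs were about as frequent as genes past it in opposite ways. Of 13231 genes compared in both, 342 (2.58%) were at least 2-fold higher in TET2KD against WT and in Double mutant against JAK2V617F, and 375 (2.83%) lower in both. Opposite directions held for 345 and 361 genes. Among 8058 genes above background on all 4 arrays, 126 were higher and 163 lower in both. Those with the largest differences in both pairs included, on the higher side, the red cell genes Slc4a1 and Hba-a1, the plasma cell gene Jchain and the granule gene Chil3, described above. Sec14l1, a lipid-transfer-domain protein, read 0.286 and 3.58 on WT and TET2KD and 0.236 and 2.82 on JAK2V617F and Double mutant. Bace1, the beta-secretase, read 0.410 and 9.42, and 1.47 and 5.65. These genes were picked by the size of their difference in both pairs, so they do not stand for their lists. In the second pair the median was -0.25 for globin and red cell membrane genes. It was 0.46 for plasma cell genes and 0.61 for secondary and tertiary granule genes. On the lower side, Tgfbr3, betaglycan, read 3.07 and 0.458, and 3.15 and 0.252. Sema4b, a semaphorin, read 8.90 and 1.33, and 5.33 and 0.502. Slc2a9, a urate transporter, read 3.56 and 0.191, and 1.07 and 0.166. Slx4, a scaffold of DNA repair nucleases, read 2.33 and 0.405, and 4.43 and 0.459.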

How the data were processed

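Trizol-extracted RNA of sorted LSK cells was amplified by NuGEN's Ovation Pico WTA method, labelled with Cy3 and hybridised to 1-colour Agilent arrays, per the labels' protocols. The deposited intensity values (processed signal, and for 1 alternative the mean and background signal) came from Agilent Feature Extraction 10.7.3.1 with probe positions in mm9, per the file headers, and arrays were not scaled to each other. The deposited series matrix holds log2 values: each column was the log2 processed signal less 1 constant (0 of 55665 probes off by more than 0.001), with medians of -2.64 for WT and -2.63 for TET2KD.

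Signals were scaled here to each array's 75th percentile over the 59305 non-control spots, outlier spots were dropped and none was saturated. Spots of a probe, then probes of a gene, were averaged on the log2 scale. A dim side was set to the lowest signal well above background on that array (0.124 for WT, 0.145 for TET2KD) or its own signal if higher. A RefSeq table (GRCm38.p6) named 28354 probes through accessions, 3190 through symbols and 271 through synonyms; 23866 stayed unnamed. All arrays lay on 1 slide.

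The members, lists and rules were chosen with earlier results of these data known. There were 60 lists. Genes named are the TET and DNMT list, up to 5 members each way past 2-fold per list (those measured on both arrays first, then bounds), members that define a list, up to 12 each way with every probe past 2-fold, and up to 10 each way past 2-fold in both pairs; a few genes the rule names are not reported here. Python 3.11.15, pandas 2.3.3 and, for normexp (offset 50), limma 3.58.1 in R 4.3.3 were used. The counting steps were tested on simulated arrays. Alternatives were normexp, quantile scaling, scaling to the median of probes above background on both arrays, only such probes, no filter, 1 probe per gene (the brightest), the deposited series matrix and a threshold of 3-fold.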

Additional observations from a re-analysis of the deposited data

Results flagged for a closer look

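The median difference of 26 of 59 gene lists had opposite signs in the pair TET2KD and WT and in the pair Double mutant and JAK2V617F, with 1 array in each group, and for 4 of them it lay at least 0.25 log2 from 0 in both. Mast cell, basophil and eosinophil genes had a median log2 difference of -0.509 in the first pair and 0.76 in the second. Megakaryocyte and platelet genes had 0.352 and -0.452, globin and red cell membrane genes 0.397 and -0.251, and endothelial and stromal genes 0.594 and -0.287. For the endothelial and stromal list the first median was 0.371 over the 15 genes measured on both arrays. These differences between the pairs were not tested, since there are no replicates, and the pairs also differ in weeks after transplantation (10 against 16, and 13 against 16).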

How the results depend on the processing

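No paired analysis was possible because the labels carry no replicate numbers and each genotype has 1 array. Over 7 alternatives, 370 of the 413 values of 59 list medians stayed within the largest log2 SD of repeat spots on the 4 arrays (0.159) and 43 moved. Counts of genes higher and lower were 866 and 1080 with normexp, 1420 and 1665 with only probes above background on both arrays, and 1180 and 1270 at 3-fold. With normexp the medians were 0.494 for plasma cell, 0.332 for secondary and tertiary granule and 0.318 for monocyte and dendritic genes and -0.279 for cytokine receptors, and the Tet2 probe starting at 133126905 differed by -1.37. Cytokine receptors came to -0.32 with only probes above background on both arrays, -0.284 without a filter and -0.272 with the brightest probe. Secondary and tertiary granule genes came to 0.459 without a filter and 0.442 with the brightest probe, and plasma cell genes to 1.44 without a filter, where the median of all genes shifted by 0.16. Of 2898 values of 424 genes, 2324 stayed within that SD (0.159), 565 moved and 9 turned direction. With normexp some genes fell under 2-fold, such as Bpi (0.246 log2) and Cxcr2 (-0.342). The values that turned direction belonged to 7 genes. With only probes above background on both arrays they were Bcl2l1 (-0.62), Dvl2 (0.13) and Hif1a (-1.29). Without a filter it was Kdm4a (0.0822). With the brightest probe they were Dvl2 (0.13), Hif1a (-1.29), Ptpn1 (0.0768), Rpl21 (-0.18) and Tet1 (0.59). The causes were not tested. Of genes with neither array above its 75th percentile 32.6% passed 2-fold, against 71.8% with 1 array above it and 16.7% with both. A large fold can itself place a gene in the class with 1 array above. Genes measured on both arrays were also ranked by mean signal. The dimmest 1005 had 103 higher and 53 lower past 2-fold, and the next 1005 had 165 and 179. The 1005 with the strongest signals had 14 and 38.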
